A study of Arabidopsis thaliana with 48 samples.

Results

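The transcripts of 10 Arabidopsis thaliana genes linked to the circadian clock were followed through every condition of an mRNA sequencing series on whole seedlings. They were chosen by gene identifier, as 10 rows of a count table of 33602 genes. Of these, 6 encode Reveille proteins (RVE1, RVE2, RVE4, RVE6, RVE7 and RVE8), 2 encode LNK proteins (LNK1 and LNK2), and the others are JMJD5 and COR27. All 10 passed the filter on low counts and were tested in every comparison. Seedlings were Col-0, 7 days old, grown in liquid medium under 16 h of light and 8 h of dark at 22 degrees C. The wild type (WT) expresses the calcium reporter aequorin, and the mutant card1-2 (card1) lies in that same aequorin line, so both genotypes carry the reporter. card1 is represented by a single allele of CARD1 (AT5G49760, also named HPCA1), which encodes a leucine-rich repeat receptor kinase. Both genotypes received either the quinone 2,6-dimethoxy-1,4-benzoquinone (DMBQ) at 5 µM or an equal volume of DMSO, and were taken at 0, 0.5, 1 and 6 h. That made 16 groups of 3 libraries. The hour of the day at which seedlings were taken is not given in the labels, so time after treatment and time of day cannot be told apart.

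As background, the plant clock is a loop of transcription factors with morning and evening phases. CCA1 and LHY, MYB-type factors of the morning, repress evening genes through a promoter motif called the evening element. The Reveille proteins share their MYB-like DNA-binding domain with CCA1 and LHY. RVE8, RVE4 and RVE6 are known as activators that bind the same evening element, whereas RVE1 links the clock to auxin, and RVE2 (also CIR1) and RVE7 (also EPR1) are clock-controlled relatives. LNK1 and LNK2 have no DNA-binding domain and act as coactivators of RVE8 and RVE4 on targets such as PRR5 and TOC1. JMJD5 (also JMJ30) is a jumonji-domain protein expressed in the evening whose loss changes clock period. COR27 is a cold-regulated, clock-controlled gene that feeds back on PRR5 and TOC1 and bears on freezing tolerance.

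By the TAIR10.1 annotation of RefSeq, 1 of the 10 genes lies on chromosome 1 (RVE7, AT1G18330, 6305814 to 6308243), 3 lie on chromosome 3 (RVE8, AT3G09600, 2946239 to 2949017; LNK2, AT3G54500, 20175370 to 20179070; JMJD5, AT3G20810, 7275645 to 7278420) and 6 lie on chromosome 5. The chromosome 5 genes are RVE1 (AT5G17300, 5690225 to 5692992), RVE2 (AT5G37260, 14751344 to 14753088), RVE4 (AT5G02840, 648648 to 651979), RVE6 (AT5G52660, 21359001 to 21362273), LNK1 (AT5G64170, 25672466 to 25676823) and COR27 (AT5G42900, 17197641 to 17199910). LNK1 overlaps AT5G64160, LNK2 overlaps AT3G54490 and AT3G08405, and RVE1 overlaps AT5G17305, each on the opposite strand. Whether counting used strand is not stated, which leaves reads from those overlaps uncertain. The 250 bases before annotated gene starts were searched on both strands for 4 clock-related motifs: the evening element AAAATATCT, the CCA1 binding site AAAAATCT, the G-box CACGTG and the morning element CCACAC. Among the windows reported here, the evening element was found before RVE7, where it begins 50 bases before the gene start; 2.4% of the 26711 promoters of that length hold it. The CCA1 binding site was found before RVE2 and RVE6 (6.74% of promoters), the G-box before RVE1 and RVE2 (6.58%), and the morning element before RVE4 (6.17%). In the RVE4 window the annotation also places AT5G02830 and AT5G00880, and in the LNK1 window AT5G64180. Such a match describes letters in these windows and is not evidence of binding. None of the 4 motifs was found before RVE8, LNK1, LNK2 or JMJD5, which also move strongly below. Promoters are printed for 2 genes that move strongly below: RVE7 with its evening element, and RVE2 with the CCA1 binding site and the G-box. Each reads 5′ to 3′ towards the gene, and capitals mark the motif matches on either strand.
RVE7, chr1:6308244-6308493, minus strand: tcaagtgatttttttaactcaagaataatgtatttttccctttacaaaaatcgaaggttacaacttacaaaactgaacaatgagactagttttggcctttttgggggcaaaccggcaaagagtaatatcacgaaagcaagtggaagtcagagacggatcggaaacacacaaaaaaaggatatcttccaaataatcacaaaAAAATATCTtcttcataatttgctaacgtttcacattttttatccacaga
RVE2, chr5:14753089-14753338, minus strand: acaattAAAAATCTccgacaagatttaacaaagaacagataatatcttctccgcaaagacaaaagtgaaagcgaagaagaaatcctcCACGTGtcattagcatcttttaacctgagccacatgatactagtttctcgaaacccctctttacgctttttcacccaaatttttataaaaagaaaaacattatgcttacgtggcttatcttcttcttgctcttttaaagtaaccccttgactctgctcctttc

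Libraries held 4764682 to 14492051 reads counted to genes, and the lowest count of any of the 10 genes in any library was 7 (RVE8 in card1 with DMSO at 6 h, replicate 1). CARD1 itself was lower in card1 than in WT at every time with either agent, by 2.66 to 3.60-fold in edgeR's quasi-likelihood test (largest adjusted p 6.7e-15), so this gene went with the genotype labels. Nothing in the labels ties the 3 libraries of a group to separate cultures. The p-values therefore rest on a spread among libraries that may be technical only. Some libraries stood apart: in replicates 1 and 2 of card1 with DMSO at 0 h, a gene's level relative to other libraries fell with transcript length (Spearman correlation −0.512 and −0.494 across genes, which are not independent replicates), and so it did in the 3 WT libraries with DMBQ at 0.5 h (−0.43 to −0.389). The other libraries lay between −0.213 and 0.175. These 5 libraries are called length-shifted here. Tests of the 10 genes that use the 2 card1 libraries were also run without them, and those that use the 3 WT libraries with length and GC correction. A lone remaining library was then assumed to vary like the other groups. All 13 marker genes of green tissue and root were detected. Summed over 6 genes, the green markers stood at 21870 to 24940 CPM (the usual count unit relative to a library's total) in WT and 29200 to 32610 CPM in card1 with DMSO at 0 h, and at 18590 to 22010 and 23120 to 24510 CPM at 6 h. The root markers, summed over 7 genes, ranged from 1668 to 2955 CPM over all libraries. In whole seedlings fewer cells of a type and less RNA per cell cannot be told apart.

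The 10 genes spanned a wide range of levels, and the order changed with time. Per kilobase of the longest annotated transcript (RPKM, n = 3), LNK2 was the most abundant in WT with DMSO at 0 h at 56.5 ± 15.7 (SD), followed by RVE4 at 42.5 ± 6.41 and LNK1 at 14.6 ± 2.42. The LNK2 and RVE4 levels lay within their combined spread. COR27 (8.74 ± 4.32), RVE1 (8.09 ± 2.78), RVE7 (7.15 ± 1.23) and RVE2 (6.57 ± 1.38) came next and did not differ from their neighbours in that order beyond their SD. RVE6 (4.70 ± 0.24), RVE8 (2.60 ± 0.918) and JMJD5 (1.94 ± 0.305) were the lowest, the last pair within their spread. By 6 h the order had turned: RVE2 led at 132.7 ± 8.51 RPKM, ahead of RVE4 (54.1 ± 1.52), JMJD5 (49.1 ± 3.09) and COR27 (30.8 ± 0.881). LNK2 stood at 4.77 ± 2.71 RPKM, close to RVE6 (5.24 ± 0.172) and RVE1 (4.92 ± 0.645), while RVE7 (1.80 ± 0.212), LNK1 (1.79 ± 1.23) and RVE8 (0.792 ± 0.117) were lowest. The plot of levels in the 48 libraries shows these courses per gene.

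**Figure D1:**
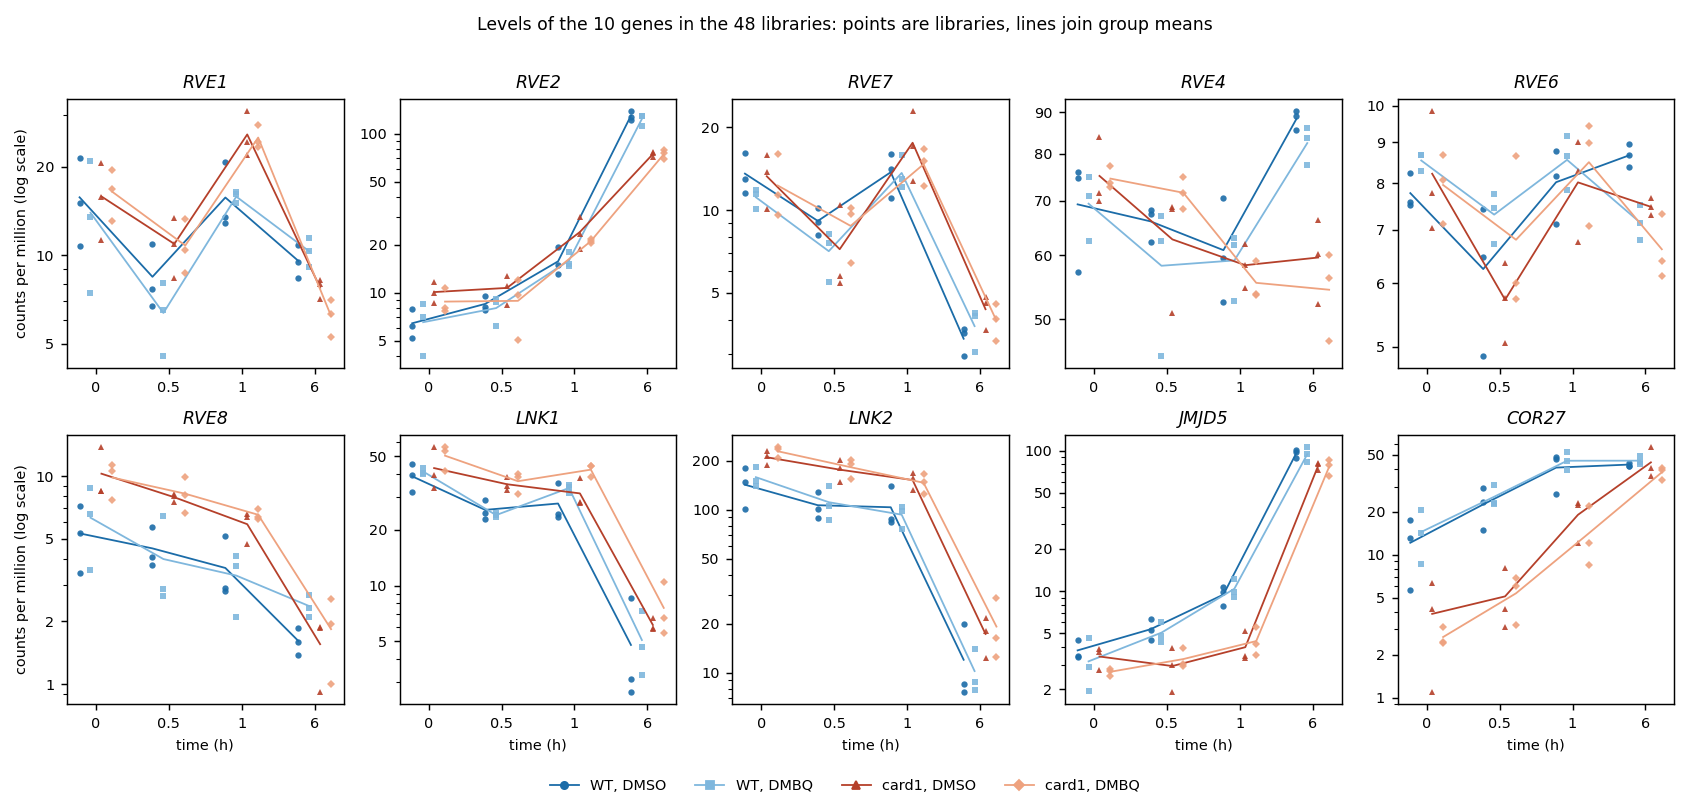
CPM (log axis) of each gene against time (0, 0.5, 1 and 6 h, evenly spaced), with a point per library and a line through the means of 3 libraries, in WT and card1 with DMSO or DMBQ. RVE2, JMJD5 and COR27 climb, LNK1, LNK2 and RVE8 drop at 6 h, and the DMSO and DMBQ lines of a genotype run close together while the WT and card1 lines part in COR27, JMJD5, LNK2 and RVE8.

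The first question was how the 10 genes moved over the 6 h in solvent alone. RVE2, JMJD5 and COR27 rose and LNK1, LNK2, RVE7 and RVE8 fell in both genotypes between 0 and 6 h. In WT 4 genes rose and 4 fell by edgeR's quasi-likelihood test at an adjusted p of 0.05, against 31.2% of the 19839 genes tested that were called in either direction. In card1 3 rose and 6 fell, against 41.6% of genes tested. The median log2 change of the 10 genes was −0.245 in WT and −0.68 in card1, beside −0.0016 and −0.0033 over all genes tested. Without the length-shifted card1 libraries at 0 h, edgeR called 4158 genes in card1 in place of 8251, and the same 9 members passed in the same directions. Green marker sums also lay lower at 6 h than at 0 h (values above; the ranges overlap in WT and not in card1), and their part in these changes was not tested.

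JMJD5, the evening jumonji gene, rose the most. In WT with DMSO it stood at 3.48, 3.41 and 4.48 CPM at 0 h and at 100.5, 98.5 and 89.1 CPM at 6 h. The groups were far apart, and the change was 25.4-fold (log2 4.67 ± 0.18 SE, adjusted p 1.3e-23, edgeR). In card1 with DMSO the 0 h libraries read 2.73, 3.89 and 3.66 CPM and the 6 h libraries 80.4, 72.7 and 81.4 CPM. That was a 22.3-fold rise (log2 4.48 ± 0.17, adjusted p 1.5e-23). RVE2, the MYB-like factor also named CIR1, went from 7.88, 5.21 and 6.21 CPM in WT to 122.8, 128.2 and 139.1 CPM, or 20.9-fold (log2 4.38 ± 0.20, adjusted p 7.4e-19). In card1 it started at 11.8, 8.60 and 9.96 CPM and reached 76.6, 75.8 and 70.9 CPM, or 7.45-fold (log2 2.90 ± 0.19, adjusted p 5.0e-15). The card1 libraries thus ended below all WT libraries although they had started above them. COR27, the cold-regulated gene, went from 5.68, 17.5 and 13.1 CPM to 42.0, 44.1 and 42.1 CPM in WT, a 3.33-fold rise (log2 1.74 ± 0.35, adjusted p 2.4e-04). In card1 it went from 1.09, 4.16 and 6.30 CPM to 40.6, 35.5 and 56.8 CPM, a 10.99-fold rise (log2 3.46 ± 0.40, adjusted p 2.3e-08). Both genotypes ended near the same COR27 level. At 0 h the means were 12.1 CPM in WT and 3.85 CPM in card1, with libraries that overlapped.

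The LNK coactivators fell together. LNK2 stood at 179.7, 101 and 147 CPM in WT with DMSO at 0 h and at 19.9, 7.63 and 8.54 CPM at 6 h, which was 12.5-fold lower (log2 −3.64 ± 0.32, adjusted p 1.4e-10, edgeR). In card1 it went from 230.3, 187 and 213 CPM to 12.3, 18.1 and 21.5 CPM, 12.1-fold lower (log2 −3.60 ± 0.30, adjusted p 1.5e-11). LNK1 went from 45.1, 32.2 and 39.4 CPM to 8.56, 2.66 and 3.11 CPM in WT, 8.80-fold lower, and from 39.6, 33.8 and 56.0 CPM to 5.89, 6.70 and 5.79 CPM in card1, 6.94-fold lower. No 6 h library overlapped a 0 h library in either gene. RVE8, the activator that LNK proteins work with, fell from 7.15, 3.41 and 5.35 CPM to 1.59, 1.39 and 1.86 CPM in WT (log2 −1.65 ± 0.43, adjusted p 0.0030). In card1 it fell from 13.8, 8.51 and 8.47 CPM to 0.917, 1.87 and 1.88 CPM (log2 −2.66 ± 0.36, adjusted p 1.6e-07). RVE7, also named EPR1, fell 3.88-fold in WT (adjusted p 3.4e-07) and 3.00-fold in card1 (adjusted p 1.2e-06). RVE1 fell 2.02-fold in card1 (adjusted p 0.0045), from 15.8 ± 4.61 to 7.75 ± 0.601 CPM (SD, n = 3). In WT its change from 15.7 ± 5.41 to 9.56 ± 1.26 CPM did not pass, but it did in DESeq2 (log2 −0.69, adjusted p 0.042) and without WT replicate 2 at 0 h (−0.89, adjusted p 0.034).

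RVE4 and RVE6, the other activators of the RVE8 kind, moved little. RVE4 stood at 74.6, 57.2 and 76.0 CPM in WT with DMSO at 0 h and at 90.3, 85.5 and 89.0 CPM at 6 h, which passed as a rise (log2 0.36 ± 0.12, adjusted p 0.023, edgeR). In card1 it went from 71.5, 70.0 and 83.8 CPM to 60.2, 52.2 and 66.2 CPM, which passed as a fall (log2 −0.34 ± 0.12, adjusted p 0.022). RVE4 was therefore the only member of the 10 with calls in opposite directions in WT and card1. Both calls were small and rested on single libraries. The WT rise did not pass without WT replicate 2 at 0 h (log2 0.23, adjusted p 0.21), replicate 1 at 6 h (adjusted p 0.060) or replicate 3 at 6 h (adjusted p 0.057). The card1 fall did not pass without replicate 3 at 0 h (−0.25, adjusted p 0.125) or replicate 2 at 6 h (−0.25, adjusted p 0.152), nor with length and GC correction (−0.25, adjusted p 0.103). RVE6 stayed between group means of 5.73 and 8.67 CPM in all 16 groups and was not called at 6 h in any series.

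Earlier times held fewer calls. In WT with DMSO, edgeR called 0 of the 10 genes at 0.5 h against 0 h, where 5 had an unadjusted p under 0.05 and DESeq2 called 2; 8.45% of all genes tested were called. At 1 h RVE2 (2.53-fold), JMJD5 (2.51-fold) and COR27 (3.17-fold) had risen, against a background of 18.3%. Some calls depended on the setting. RVE1 at 0.5 h passed as lower in DESeq2 (log2 −0.89, adjusted p 0.0185) and with a term for replicate number (−0.85, adjusted p 0.0206), and also without replicate 2 at 0 h (−1.12, adjusted p 0.024) or replicate 1 at 0.5 h (−1.10, adjusted p 0.049). LNK1 at 0.5 h passed as lower in DESeq2 (−0.60, adjusted p 0.0478) and with that term (−0.58, adjusted p 0.0459). LNK1 at 1 h passed as lower without replicate 1 at 1 h (−0.69, adjusted p 0.031) and with the term together with length and GC correction (−0.47, adjusted p 0.0425). In card1 with DMSO, RVE7 (1.85-fold, groups overlapping) and RVE6 (1.44-fold) were lower at 0.5 h, where 21.1% of all genes were called. The RVE7 call went without replicate 2 at 0.5 h (adjusted p 0.064), and the RVE6 call without that library (0.108) or replicate 3 at 0 h (0.11). Without the 2 length-shifted libraries at 0 h both passed (RVE7 −1.17, adjusted p 0.0138; RVE6 −0.80, adjusted p 0.0153). At 1 h RVE2 (2.41-fold), COR27 (4.76-fold) and RVE1 (1.64-fold) were higher and RVE4 (1.29-fold) was lower in card1, against 26.9% of genes. Of the 13 alternatives fixed at the start, 13 called COR27, 8 called RVE4 and 7 called RVE1 at 1 h. Leaving out the 2 length-shifted card1 libraries left a lone library at 0 h. The log2 values at 1 h were then 0.32 for RVE1, −0.53 for RVE4, 1.58 for COR27 and −0.84 for LNK1. RVE1 lost its call without card1 replicate 1 (adjusted p 0.089) or 2 (0.229) at 0 h or replicate 1 (0.155) or 3 (0.059) at 1 h. RVE4 lost it without replicate 3 at 0 h (0.11) or replicate 1 (0.092) or 2 (0.056) at 1 h. Conversely RVE7 passed as higher without replicate 3 at 1 h (0.61, adjusted p 0.040), RVE8 as lower without replicate 3 at 0 h (−0.88, adjusted p 0.033) or with a term for replicate number (−0.79, adjusted p 0.0312) and LNK1 as lower without replicate 2 at 0 h (−0.62, adjusted p 0.046). JMJD5 was not called in card1 at 1 h (3.43 ± 0.612 against 3.995 ± 1.05 CPM, SD, n = 3), whereas in WT it went from 3.79 ± 0.597 to 9.46 ± 1.46 CPM.

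The DMBQ series gave a separate set of libraries for the same courses. At 6 h against 0 h, 3 of the 10 genes were higher and 4 lower in WT with DMBQ (32.4% of all genes called), and 3 were higher and 6 lower in card1 with DMBQ (32.6%). RVE2 rose 19.4-fold in WT and 8.46-fold in card1, JMJD5 28.7-fold and 28.6-fold, and COR27 3.10-fold and 13.9-fold. LNK2 was 15.3-fold and 12-fold lower, LNK1 8.01-fold and 6.73-fold lower, RVE8 2.60-fold and 5.44-fold lower and RVE7 2.95-fold and 3.12-fold lower. RVE4 fell in card1 (log2 −0.46 ± 0.12, adjusted p 0.0025, edgeR) and RVE1 fell in card1 (−1.40 ± 0.28, adjusted p 1.6e-04). At 1 h in WT with DMBQ, RVE2, JMJD5 and COR27 were higher and RVE8 and LNK2 lower, against 22.9% of genes. Of those, RVE8 (groups overlapping) lost its call without replicate 1 (adjusted p 0.088) or 3 (0.265) at 0 h or replicate 2 at 1 h (0.182), and LNK2 without replicate 3 at 0 h (0.11) or replicate 1 (0.113) or 3 (0.051) at 1 h. In card1 with DMBQ at 1 h, RVE2, JMJD5 and COR27 were higher and RVE4 lower, against 17% of genes. The JMJD5 call (1.59-fold, adjusted p 0.0498) went without replicate 1 (0.131), 2 (0.0845) or 3 (0.107) at 0 h. It also went without replicate 2 (0.0844) or 3 (0.24) at 1 h. RVE1, not called there, passed as higher in 3 of 13 alternatives. These were a term for replicate number (log2 0.63, adjusted p 0.0226), that term with length and GC correction (0.62, adjusted p 0.0226) and only the compared libraries (0.615, adjusted p 0.0171). LNK2 passed as lower in 1 of them, with only the compared libraries (−0.65, adjusted p 0.0042). At 0.5 h edgeR called 0 of 10 in card1 with DMBQ (3 with an unadjusted p under 0.05, 0 in DESeq2; background 8.15%). In WT with DMBQ at 0.5 h, whose 3 libraries are all length-shifted, 26.6% of genes were called, JMJD5 (1.55-fold) among those higher and RVE1 (2.17-fold), RVE7 (1.58-fold) and LNK1 (1.72-fold) among those lower; the groups overlap in JMJD5 and RVE1. With length and GC correction the JMJD5 call did not pass (adjusted p 0.059). Single libraries also decided 3 of those 4 calls: RVE1 did not pass without replicate 3 at 0 h (0.098), RVE7 without replicate 2 (0.085) or 3 (0.064) at 0 h or 3 at 0.5 h (0.143), and JMJD5 without replicate 1 (0.228) or 3 (0.127) at 0 h or 2 (0.051) or 3 (0.193) at 0.5 h. Calls appeared for RVE8 without replicate 2 at 0 h (0.033) or 3 at 0.5 h (0.016), RVE4 without replicate 3 at 0.5 h (0.041) and COR27 without replicate 2 at 0 h (0.040), and for RVE1 at 6 h without replicate 2 at 0 h (0.035).

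**Figure D2:**
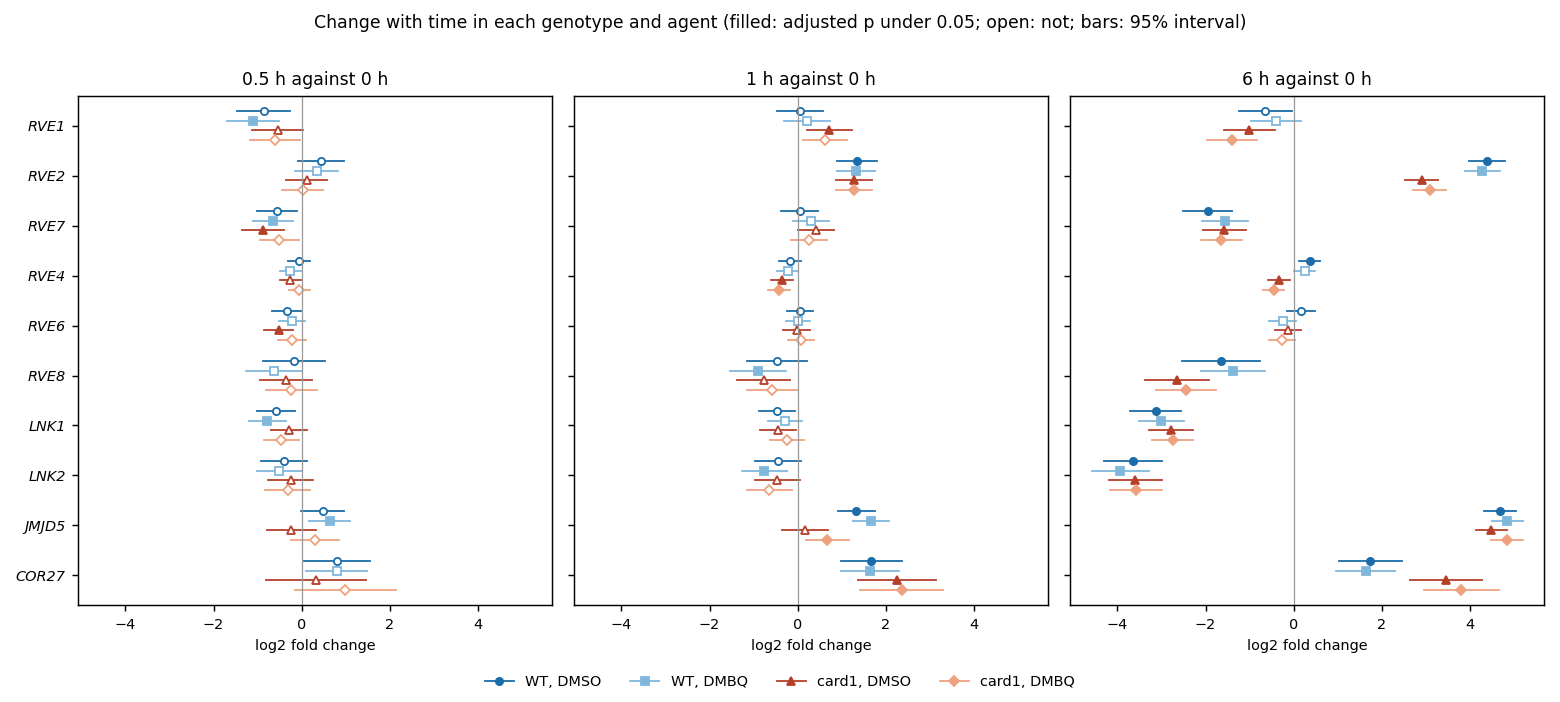
Log2 fold change from 0 h at 0.5, 1 and 6 h for each gene in WT and card1 with DMSO or DMBQ; bars are 95% intervals and filled symbols have an adjusted p under 0.05. At 6 h RVE2 and JMJD5 lie far to the right and LNK1 and LNK2 far to the left in all 4 series, and RVE4 lies above 0 in WT and below 0 in card1.

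Relatives and core clock genes moved over the same hours. Of the 5 listed relatives, RVE3 did not pass the filter on low counts. Of the other 4, LNK3 and LNK4 fell from 0 to 6 h in both genotypes with DMSO, whereas RVE5 and COR28 were not called. The log2 change of LNK4 (AT5G06980) was −4.42 ± 0.36 in WT and −4.19 ± 0.30 in card1. All 23 listed core clock and clock-associated genes were tested, and 6 rose and 9 fell in WT, where 31.2% of all genes were called. In card1 7 rose and 10 fell, against 41.6% of all genes. Without the length-shifted card1 libraries at 0 h the same 17 clock genes passed in card1 in the same directions, as did LNK3 and LNK4. The smallest adjusted p in WT belonged to ELF4, a subunit of the evening complex (log2 2.29 ± 0.15), GI, an evening gene that acts on protein stability (−2.58 ± 0.16), PRR7 (AT5G02810), a daytime repressor (−3.13 ± 0.19), and BOA (AT5G59570), a MYB-like factor (2.54 ± 0.18). The median log2 change of this list was −0.15 in WT and −0.092 in card1.

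The next question was how the mutant differed from WT in solvent. COR27 and JMJD5 were lower and RVE8 and LNK2 higher in card1 when the 4 times were averaged. By edgeR's quasi-likelihood test COR27 was 2.34-fold lower (log2 −1.22 ± 0.20, adjusted p 1.9e-05), JMJD5 1.54-fold lower (−0.62 ± 0.11, adjusted p 4.5e-05), RVE8 1.55-fold higher (0.64 ± 0.19, adjusted p 0.011) and LNK2 1.53-fold higher (0.62 ± 0.14, adjusted p 0.0015). These 4 of 10 calls stand against 25.7% of all genes tested, and the median log2 change of the 10 genes was 0.145 beside −0.0049 over all genes. The test treats libraries of different times as independent. With DMSO, COR27 was highest in card1 replicate 3 and lowest in WT replicate 1 at 4 of 4 times. LNK2 was highest in WT replicate 1 and lowest in WT replicate 2 at 4 of 4 times, and RVE8 lowest in WT replicate 2. In JMJD5 no replicate kept such a place. The SE of these averages may therefore be too small for COR27, LNK2 and RVE8. LNK1 was close to the threshold (0.33 ± 0.13, adjusted p 0.052) and passed in 12 of the 31 alternatives fixed at the start. Among them were DESeq2 (adjusted p 0.024), RLE factors (0.048) and a term for replicate number (0.030). Length and GC correction without that term (0.031) or with it (0.016) were others. LNK1 also passed without WT replicate 1 at 0 h (0.038), 0.5 h (0.044), 1 h (0.019) or 6 h (0.0038). The rest were without card1 replicate 2 at 0 h (0.028) or 1 h (0.049) and without card1 replicate 3 at 1 h (0.047). RVE4 (−0.14 ± 0.061, adjusted p 0.078) passed without WT replicate 2 at 0 h (0.028) or 1 h (0.042) or card1 replicate 3 at 0 h (0.044) or 6 h (0.047). It also passed with the term for replicate number (0.041). Without the length-shifted card1 libraries at 0 h those 4 genes passed in the same directions, and LNK1 did too (0.42, adjusted p 0.014). In the DMBQ libraries, a comparison added after the data had been seen and sharing no library with the DMSO one, COR27 (−1.67 ± 0.19), JMJD5 (−0.62 ± 0.11), RVE8 (0.56 ± 0.17) and LNK2 (0.69 ± 0.14) were called in the same directions, and LNK1 was called higher (0.44 ± 0.11). There 34.6% of all genes were called. That average includes the 3 length-shifted WT libraries at 0.5 h, and with length and GC correction the same 5 genes passed in the same directions. Green marker sums were higher in card1 than in WT with DMSO at all 4 times, with no overlap between the groups, and their part in these differences was not tested.

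COR27 had the largest difference between the genotypes of the 10 genes at 0 and 0.5 h. With DMSO at 0.5 h it stood at 15.0, 23.2 and 29.3 CPM in the WT libraries and at 3.10, 4.20 and 8.02 CPM in card1, which was 4.46-fold lower (log2 −2.16 ± 0.44, adjusted p 0.0030, edgeR). The groups did not overlap, and COR27 was the 1 of 10 genes called at that time, against 6.11% of all genes. At 0 h the WT libraries read 5.68, 17.5 and 13.1 CPM and the card1 libraries 1.09, 4.16 and 6.30 CPM, so the groups overlapped (−1.68 ± 0.46, adjusted p 0.013). That 0 h call passed in 9 of the 13 alternatives fixed at the start, length and GC correction among them. It did not pass without WT replicate 2 (−1.28, adjusted p 0.138) or card1 replicate 1 (−1.31, adjusted p 0.104). Nor did it pass without card1 replicate 2 (−1.72, adjusted p 0.058) or with only the compared libraries (−1.67, adjusted p 0.198). Without both length-shifted card1 libraries, which left a lone card1 library, the value was −1.03. At 1 h COR27 read 26.7, 48.6 and 46.8 CPM in the WT libraries and 12.01, 22.1 and 23.0 CPM in card1. All card1 libraries were lower (−1.10 ± 0.33, adjusted p 0.052). COR27 passed there in 4 of the 13 alternatives. These were without WT replicate 1 (−1.33, adjusted p 0.022), with a term for replicate number (0.013), with length and GC correction (0.048) and with both (0.012). At 6 h the difference was 0.039 ± 0.31 with a 95% interval of −0.59 to 0.66, around levels of 42.7 ± 1.22 CPM in the WT libraries and 44.3 ± 11.1 CPM in card1 (SD, n = 3). In the DMBQ libraries COR27 was lower in card1 at 0 h (−2.44 ± 0.46, adjusted p 0.0019), 0.5 h (−2.24 ± 0.41, adjusted p 1.9e-04) and 1 h (−1.72 ± 0.33, adjusted p 0.0010). At 0 h those libraries read 8.67, 20.4 and 14.2 CPM in the WT libraries and 2.41, 2.45 and 3.10 CPM in card1, without overlap. The 6 h value with DMBQ was −0.27 ± 0.30, with an interval of −0.88 to 0.34.

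JMJD5 differed between the genotypes at 1 h. With DMSO it stood at 7.85, 9.83 and 10.7 CPM in the WT libraries and at 3.45, 5.20 and 3.33 CPM in card1, 2.41-fold lower (log2 −1.27 ± 0.21, adjusted p 1.7e-04, edgeR). All card1 libraries were lower, and JMJD5 was the 1 of 10 genes called at 1 h, against 3.66% of all genes. The DMBQ libraries at 1 h read 9.90, 9.07 and 12.3 CPM in the WT libraries and 3.501, 4.19 and 5.55 CPM in card1, 2.43-fold lower (−1.28 ± 0.19, adjusted p 1.7e-05). At 0 h the difference was −0.11 ± 0.26 with DMSO and −0.29 ± 0.26 with DMBQ, and neither passed. At 0.5 h it was −0.82 ± 0.26 with DMSO (adjusted p 0.051) and −0.62 ± 0.24 with DMBQ (adjusted p 0.056). The DMSO value at 0.5 h passed in DESeq2 (adjusted p 0.035) and without card1 replicate 1 (−1.05, adjusted p 0.035). At 6 h it was −0.30 ± 0.12 with either agent and did not pass. The DMSO value at 6 h passed in 1 of the 13 alternatives, with only the compared libraries (adjusted p 0.035). Every card1 library with DMSO (72.69 to 81.45 CPM) lay below every WT one (89.13 to 100.5 CPM) at 6 h, whereas the groups overlapped with DMBQ.

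RVE8 and LNK2 lay above WT in card1 at the first 3 times while only LNK2 did so in its mean at 6 h. RVE8 at 0 h with DMSO read 7.15, 3.41 and 5.35 CPM in the WT libraries and 13.8, 8.51 and 8.47 CPM in card1, 2.01-fold higher (log2 1.00 ± 0.31, adjusted p 0.025, edgeR). That call passed in 9 of the 13 alternatives fixed at the start, length and GC correction among them. It did not pass without WT replicate 2 (0.71, adjusted p 0.199) or WT replicate 3 (1.04, adjusted p 0.062). Nor did it pass without card1 replicate 1 (0.75, adjusted p 0.199) or with only the compared libraries (0.99, adjusted p 0.206). Without both length-shifted card1 libraries, which left a lone card1 library, the value was 0.75. RVE8 and COR27 were the 2 of 10 genes called at 0 h, where 12.7% of all genes were called (2514, or 118 without the length-shifted libraries). At 0.5 h and 1 h RVE8 was at 0.83 ± 0.33 (adjusted p 0.120) and 0.71 ± 0.33 (adjusted p 0.232) with DMSO. With DMBQ it was at 0.65 ± 0.28 (adjusted p 0.204), 1.04 ± 0.31 (adjusted p 0.013) and 0.97 ± 0.31 (adjusted p 0.045) at 0, 0.5 and 1 h. At 6 h its values were −0.0025 ± 0.53 and −0.41 ± 0.43, with levels of 0.917 to 2.69 CPM over all 12 libraries. LNK2 was at 0.57 ± 0.25, 0.73 ± 0.26, 0.56 ± 0.25 and 0.61 ± 0.36 over the 4 times with DMSO, none of which passed alone with all libraries in the model. At 0.5 h with DMSO, LNK2 (0.73, adjusted p 0.026) and RVE8 (0.83, adjusted p 0.049) passed in 1 of the 13 alternatives, with only the compared libraries. Every card1 library lay above every WT library there in both genes. At 0 h every card1 library of LNK2 (187 to 230.3 CPM) lay above every WT library (101 to 179.7 CPM). LNK2 and LNK1 were called higher in card1 with DMBQ at 0.5 h (0.71 ± 0.25, adjusted p 0.035, and 0.61 ± 0.21, adjusted p 0.028). That comparison uses the 3 length-shifted WT libraries, and with length and GC correction neither passed (LNK2 0.59, adjusted p 0.113; LNK1 0.48, adjusted p 0.107) whereas RVE8 and COR27 did.

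At 6 h the difference lay in RVE2 and RVE4 instead. With DMSO, RVE2 stood at 122.8, 128.2 and 139.1 CPM in the WT libraries and at 76.6, 75.8 and 70.9 CPM in card1, 1.75-fold lower (log2 −0.80 ± 0.15, adjusted p 0.0016, edgeR). RVE4 stood at 90.3, 85.5 and 89.0 CPM in the WT libraries and at 60.2, 52.2 and 66.2 CPM in card1, 1.49-fold lower (−0.57 ± 0.12, adjusted p 0.0038). The groups were apart in both genes, which were the 2 of 10 called at 6 h, against 5.19% of all genes. Both calls passed under all 13 alternatives fixed at the start, with largest adjusted p of 0.0155 for RVE2 and 0.0478 for RVE4. The DMBQ libraries gave 130.1, 129.8 and 112 CPM against 78.5, 75.5 and 69.1 CPM for RVE2 (−0.74 ± 0.15, adjusted p 0.0023). For RVE4 they gave 83.7, 86.1 and 77.6 CPM against 47.0, 56.1 and 60.0 CPM (−0.60 ± 0.12, adjusted p 0.0016). None of the length-shifted libraries is in either comparison. At 0 h RVE2 was higher in every card1 library with DMSO without passing (0.68 ± 0.25, adjusted p 0.064), and it passed there in DESeq2 (adjusted p 0.021). At 1 h RVE2 (0.61 ± 0.18, adjusted p 0.055) passed without WT replicate 1 (adjusted p 0.023) or card1 replicate 3 (0.034). It also passed in DESeq2 (0.028), with a term for replicate number (0.022), with length and GC correction (0.045) and with both (0.021). RVE1 (0.72 ± 0.25, adjusted p 0.098) passed without WT replicate 1 (0.038), with the term (0.031) and with the term and that correction (0.023).

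**Figure D3:**
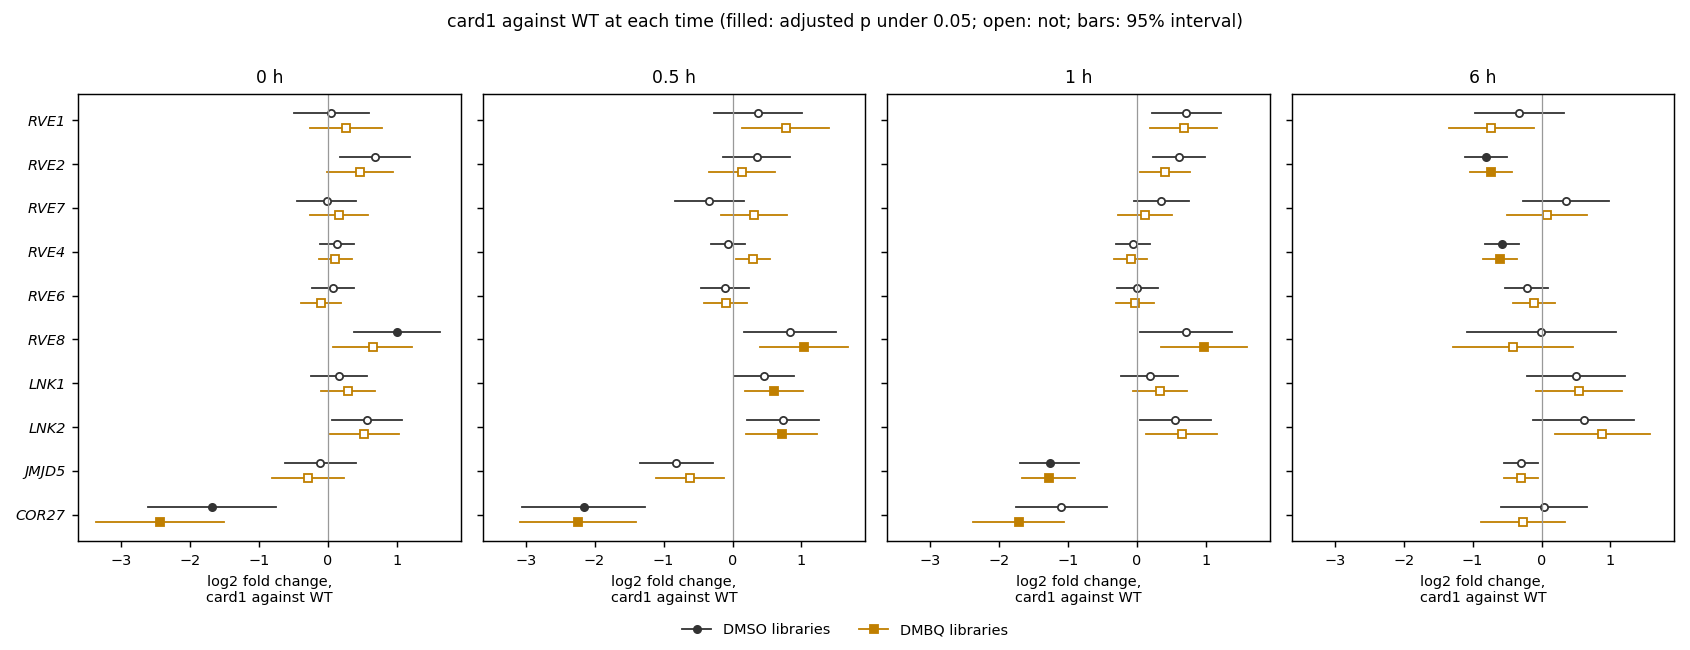
Log2 fold change of card1 against WT for each gene at 0, 0.5, 1 and 6 h, in the DMSO libraries (circles) and the DMBQ libraries (squares); bars are 95% intervals and filled symbols have an adjusted p under 0.05. COR27 lies to the left of 0 at 0, 0.5 and 1 h, JMJD5 at 1 h, and RVE2 and RVE4 at 6 h, with DMSO and DMBQ values side by side.

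Over the other times of the DMBQ libraries, edgeR called 1 of 10 genes between the genotypes at 0 h (3.87% of all genes), 4 at 0.5 h (26.1%), 3 at 1 h (7.38%) and 2 at 6 h (7.05%). Whether a gene's course over time differed between the genotypes was tested as a difference of differences. With DMSO this called 0 of 10 genes at 0.5 h (0 with an unadjusted p under 0.05, 0 in DESeq2; background 6.4%) and 0 at 1 h (1 with an unadjusted p under 0.05, JMJD5, and 0 in DESeq2; background 0.126%). JMJD5 at 1 h (−1.16 ± 0.33, adjusted p 0.113) passed without card1 replicate 3 at 0 h (−1.12, adjusted p 0.044). At 6 h it called RVE2 (log2 −1.48 ± 0.29, adjusted p 0.0066) and RVE4 (−0.70 ± 0.17, adjusted p 0.031), against 1.2% of genes. The RVE2 difference had a smaller log2 rise in card1, 2.90 against 4.38. Without both length-shifted card1 libraries the values were −1.48 (adjusted p 0.145) and −0.86 (adjusted p 0.118), and without WT replicate 2 at 0 h they were −1.32 (adjusted p 0.057) and −0.57 (adjusted p 0.125). RVE4 also lost its call without any of the 3 WT libraries at 6 h (adjusted p 0.0631 to 0.0681), card1 replicate 1 at 0 h (0.086), or card1 replicate 1 (0.057) or 2 (0.11) at 6 h. COR27 at 6 h (1.72 ± 0.55, adjusted p 0.119) passed without card1 replicate 3 at 0 h (2.19, adjusted p 0.021) and with a term for replicate number (1.72, adjusted p 0.044). In the DMBQ libraries, which hold no length-shifted library at 0 or 6 h, the 6 h test called the same genes, RVE2 (−1.20 ± 0.28, adjusted p 0.032) and RVE4 (−0.71 ± 0.17, adjusted p 0.034), against 0.585% of genes. COR27 was at 2.17 ± 0.56 there (adjusted p 0.064). At 0.5 and 1 h with DMBQ it called 0 of 10 (0 and 1 with an unadjusted p under 0.05; DESeq2 was not run on these added tests), where 3.48% and 0.00504% of genes were called.

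Among the relatives, COR28, a close relative of COR27, was lower in card1 averaged over the 4 times with DMSO (log2 −0.85 ± 0.17, adjusted p 3.6e-04, edgeR), the 1 of 4 tested relatives called. COR28 with DMBQ was at −1.11 ± 0.17. Of the 23 clock genes, 2 were higher and 8 lower in card1 averaged over the times with DMSO, where 25.7% of all genes were called. ELF4 (−0.61 ± 0.08), TOC1, an evening repressor (−0.41 ± 0.06), PRR3, its relative (−0.44 ± 0.09), and FKF1, a blue-light F-box protein (−0.88 ± 0.17), had the smallest adjusted p. Without the length-shifted card1 libraries at 0 h, 3 clock genes were higher and 7 lower in that average, and these 4 and COR28 passed in the same direction. At 0 h, where 12.7% of all genes were called, 0 of the 23 were higher and 6 lower, and without those libraries 0 were called in either direction. By time after that, 2 were higher and 6 lower at 0.5 h (6.11% of all genes), 1 higher and 3 lower at 1 h (3.66%), and 1 higher and 0 lower at 6 h (5.19%). The median log2 change of the 23 over the averaged times was −0.10.

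The treatment itself, DMBQ against DMSO at the same time, left the 10 genes without a call. In 80 tests, 10 genes in 2 genotypes at 4 times, edgeR called 0, the smallest adjusted p was 0.413 and 1 unadjusted p was under 0.05. DESeq2 also called 0. The tests at 0 h compare the groups before any time in the agent, so only the later times bear on a response. The log2 changes ran from −0.56 to 0.57, and no 95% interval reached beyond −1.72 or 1.55. In WT, DMBQ called 0.126%, 2.45%, 2.78% and 1.22% of all genes tested at 0, 0.5, 1 and 6 h, and in card1 5.45%, 0.151%, 1.18% and 1.05%, so 0 of 10 was near the background at each time. The card1 0 h comparison holds the length-shifted DMSO libraries, and without them edgeR called 0 genes in place of 1082 (DESeq2 on all libraries 1543); the WT 0.5 h comparison holds the length-shifted DMBQ ones. Groups did not overlap in 5 of the 80 cases. The matching share over all genes was not counted, so no result about these genes is read from that. LNK1 at 1 h in card1 was the value with an unadjusted p under 0.05, at 38.0, 28.4 and 28.0 CPM with DMSO and 44.1, 44.2 and 38.6 CPM with DMBQ (log2 0.43 ± 0.20, adjusted p 0.734). RVE8 at 6 h in WT gave the largest value, with 1.59, 1.39 and 1.86 CPM under DMSO and 2.69, 2.31 and 2.11 CPM under DMBQ (0.57 ± 0.48, adjusted p 0.822).

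Precision differed between the genes. RVE4 and JMJD5 at 6 h had the narrow intervals and COR27 and RVE8 the wide ones. In WT at 6 h the DMBQ change was −0.027 for JMJD5 (95% interval −0.28 to 0.22) and −0.10 for RVE4 (−0.34 to 0.15). In card1 at 0 h it was −0.56 for COR27 (−1.72 to 0.59), whose lowest library there held 8 counts. Whether the response to DMBQ differed between the genotypes was tested at 0.5, 1 and 6 h. Over 30 values edgeR called 0 and DESeq2 0, the smallest adjusted p was 0.469 and 1 unadjusted p was under 0.05 (RVE4 at 0.5 h, 0.37 ± 0.17). The background was 0% at 0.5 h, 0% at 1 h and 0% at 6 h by edgeR, where 2009, 460 and 1041 genes had an unadjusted p under 0.05 and DESeq2 called 9, 1 and 0. By edgeR the relatives and clock genes also gave 0 calls for DMBQ in WT at all 4 times, with 2 of the 23 clock genes at an unadjusted p under 0.05 at 0.5 h and 0 at the other times; DESeq2 was not counted over these lists. In card1 2 clock genes were called at 0 h, ELF4 (−0.75 ± 0.18, adjusted p 0.015) and TIC (0.31 ± 0.09, adjusted p 0.030), in the comparison with the length-shifted libraries. Neither passed without those libraries (ELF4 −0.77, adjusted p 0.922; TIC 0.070, adjusted p 0.959) or with length and GC correction.

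**Figure D4:**
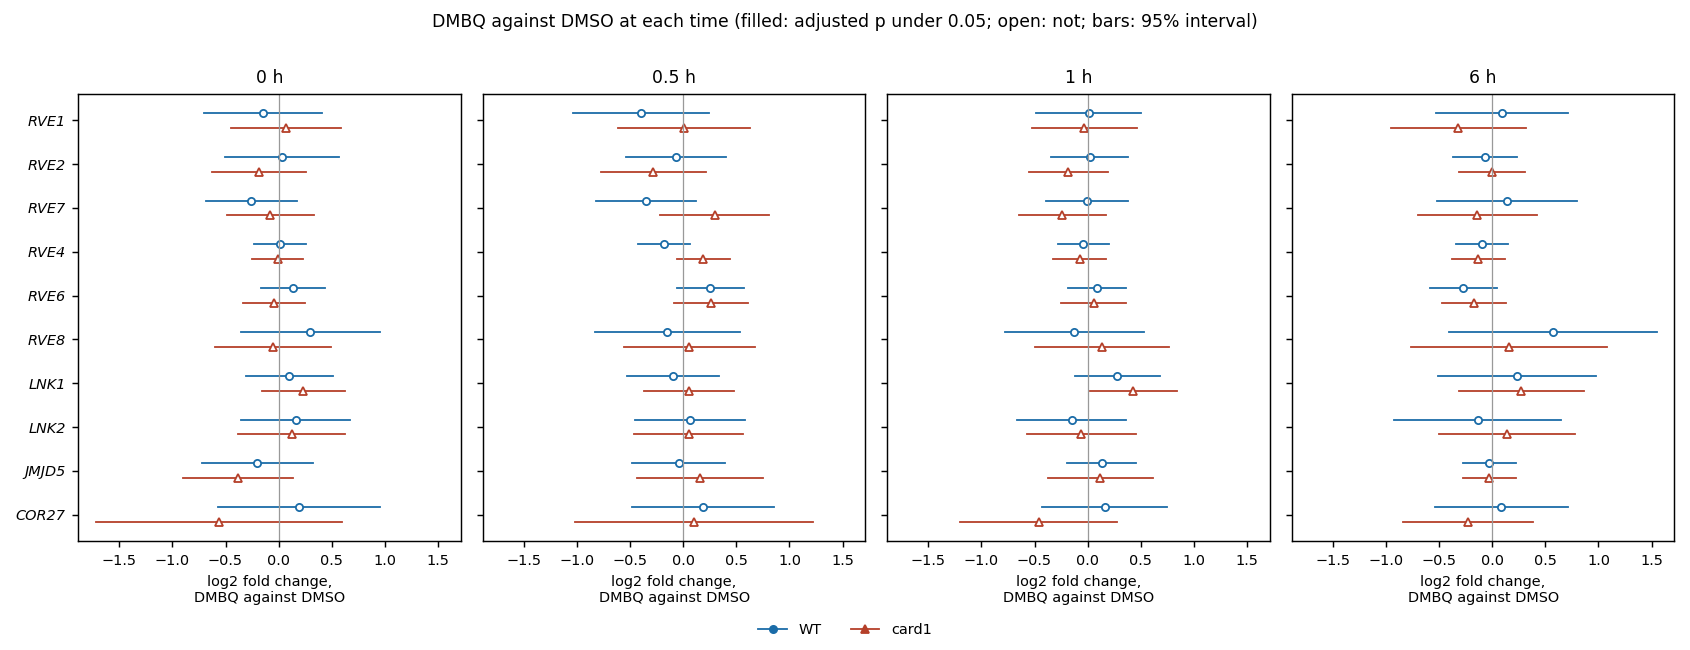
Log2 fold change of DMBQ against DMSO for each gene at 0, 0.5, 1 and 6 h in WT (circles) and card1 (triangles); bars are 95% intervals, and every symbol is open because no adjusted p was under 0.05. All 80 values lie between −0.56 and 0.57.

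The shapes of the courses were compared as Pearson correlations of mean log2 CPM over the 16 groups, given as a description, since the groups share times and libraries and most of the variation is between 6 h and the earlier times. LNK1 and LNK2 ran together (r = 0.987), LNK2 ran with RVE8 (r = 0.912) and RVE2 with JMJD5 (r = 0.936). LNK2 and JMJD5 ran opposite (r = −0.989), as did COR27 and RVE8 (r = −0.903). Within the Reveille genes, RVE1 was nearest RVE7 (r = 0.793), and RVE4 and RVE6 had no r above 0.54 with any other of the 10. Among 17730 genes outside the 10 whose mean log2 CPM reached 1 or more, the course nearest LNK2 was that of LHCB2.2 (r = 0.994), a light-harvesting protein gene of the green tissue, followed by CCA1 (r = 0.993). LNK1 was nearest AT1G79600 (r = 0.988) and LHCB2.3 (r = 0.987), and RVE8 nearest AT1G77930 (r = 0.99) and ABCI8 (r = 0.981). RVE2 was nearest ALDH10A8 (r = 0.978) and CGA1 (r = 0.977), the latter a GATA factor. JMJD5 was nearest AT3G60300 (r = 0.987) and DI19 (r = 0.986), and COR27 nearest AT1G07050 (r = 0.98) and RIBA2 (r = 0.979). RVE7 was nearest MYBL2 (r = 0.979) and AT2G30600 (r = 0.967), and RVE1 nearest AT1G18460 (r = 0.959) and CAT6 (r = 0.931). The flat genes had looser neighbours: RVE4 with AT3G13061 (r = 0.875) and GAPA (r = 0.837), itself a green marker above, and RVE6 with AT3G26100 (r = 0.868) and TRP1 (r = 0.862).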

How the data were processed

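RNA from 48 libraries of whole seedlings (16 groups of 3) was sequenced on an Illumina NextSeq500 after KAPA mRNA HyperPrep library preparation, per the labels' protocols. The authors deposited raw counts of reads per gene. Per the submitters' processing notes the tools were HISAT2 2.1.0 and HTSeq 0.6.1 with genome build TAIR10; the strand setting is not given in the sources used here. The 5 entries that name no gene (no feature 1.28 to 2.08% of the counts, ambiguous 0.655 to 0.735%, not aligned 2.64 to 7.25%, not unique 6.53 to 13.3%) were left out. Depth was 4764682 to 14492051 gene counts per library, and a low count limits precision.

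Genes were filtered with filterByExpr at a minimum count of 10, which kept 19839. A single group-means model of the 48 libraries was fitted in edgeR 4.0.16 (R 4.3.3; TMM factors, robust quasi-likelihood test), and p-values were adjusted by Benjamini-Hochberg over all tested genes in each of 31 comparisons, called at 0.05. Another 8 comparisons of the genotypes with DMBQ were added after the data had been seen. Levels are CPM, and RPKM uses the longest annotated transcript; errors of fold changes are SE and intervals are 95%. The members and lists were chosen with earlier results of these data known. All 10 members are named, with up to 4 list genes per comparison by smallest adjusted p and the 2 nearest courses per member. The alternatives were DESeq2 1.42.0, RLE factors, no filter, only the compared libraries, a replicate block, length and GC correction (spline, 4 degrees of freedom) and leaving out each library. The procedure was also tested on simulated counts. Of 33602 gene identifiers, 32835 had a TAIR10.1 entry; promoter sequences were read from the RefSeq TAIR10.1 genome. The promoter of 1 member is not reported here.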

Additional observations from a re-analysis of the deposited data

Results flagged for a closer look

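The change from 0 to 6 h differed between card1 and WT in 2 genes, by edgeR's test of the difference itself. For RVE2 the difference of log2 changes, card1 minus WT, was −1.48 with DMSO and −1.20 with DMBQ. For RVE4 it was −0.70 with DMSO and −0.71 with DMBQ. The DMSO values rest partly on 2 card1 libraries at 0 h in which levels fell with transcript length, and without them the adjusted p was 0.145 for RVE2 and 0.118 for RVE4. Over the 19 alternatives fixed at the start RVE2 passed in 18 and RVE4 in 10. In both genes every card1 library was below every WT library at 6 h with either agent.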

How the results depend on the processing

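Over the alternative settings named above, COR27 at 0.5 h (log2 −2.58 to −1.93), JMJD5 at 1 h (−1.48 to −1.15), RVE2 at 6 h (−0.84 to −0.75) and RVE4 at 6 h (−0.65 to −0.48) stayed called between card1 and WT with DMSO under 13 of 13 settings. The counts of members called that moved by more than 1.5 times were these; smaller moves are not listed, and the causes were not tested. For card1 against WT with DMSO at 0 h (2 called), 0 were called with only the compared libraries or without card1 DMSO 0 h replicates 1 and 2, and 1 with the DMBQ libraries instead, with or without length and GC correction (0 to 2 leaving out single libraries). At 0.5 h (1 called) DESeq2 called 2, only the compared libraries 3, the DMBQ libraries 4, and these with length and GC correction 3 (1 to 2 leaving out single libraries). At 1 h (1 called) DESeq2 called 2, the replicate block 4, length and GC correction 3, both together 4, and the DMBQ libraries 3 with or without that correction (1 to 4). Against 0 h, WT DMSO at 0.5 h (0 called) had 2 by DESeq2, the block, the block with length and GC correction, or only the compared libraries (0 to 1). For card1 DMSO, 0.5 h (2 called) had 0 with only the compared libraries (0 to 2), and 1 h (4 called) had 2 with those or without card1 DMSO 0 h replicates 1 and 2 (2 to 4). WT DMBQ at 0.5 h (4 called) had 2 with only the compared libraries (1 to 5), and at 1 h (5 called) 3 to 5. The genotype by time test with DMSO at 1 h (0 called) had 0 to 1, and at 6 h (2 called) 1 with length and GC correction or only the compared libraries, 0 without card1 DMSO 0 h replicates 1 and 2, and 0 to 3 leaving out single libraries. RVE4 between card1 and WT at 0.5 h, at −0.069, was 0.38 (adjusted p 0.032) in the DMBQ libraries with length and GC correction.

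Counts over all genes moved more than 1.5 times in several comparisons. Without card1 DMSO 0 h replicates 1 and 2, card1 against WT at 0 h went from 2514 to 118, card1 at 0.5, 1 and 6 h against 0 h from 4190, 5335 and 8251 to 979, 1286 and 4158, DMBQ in card1 at 0 h from 1082 to 0, and the genotype by time test from 1269, 25 and 239 to 3, 0 and 3. With length and GC correction WT DMBQ at 0.5 h against 0 h went from 5283 to 2960. DESeq2 called 276 and 440 genes in the genotype by time test at 1 and 6 h, and 53 in place of 25 for DMBQ in WT at 0 h.

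Same-numbered libraries of different groups correlated at −0.0925 to 0.327 in their deviations (49 of 84 pairs over 0.1, 45 of 48 libraries best with their own number), and the labels give no pairing. All 3 pairs were over 0.1 for WT DMSO at 0.5 h and card1 DMSO at 0.5 and 1 h against 0 h, for DMBQ against DMSO at 0 h in both genotypes and at 0.5 and 1 h in card1, and for card1 against WT with DMBQ at 0 h; where the block changed a call among the first 3, its value stands beside the result. The replicate block kept 297 member values on their side of the threshold, took the call from 1 and added a call to 12.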
